A study of Mus musculus with 8 samples.

Results

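The semaphorin, plexin, neuropilin, ephrin, Eph, Slit, Robo, netrin-1 and Dcc genes of the mouse were followed in embryos labelled Gcnf-/- or wild type. Members were picked by a rule on gene symbols, from the protein-coding genes of the deposited table. The rule was set with earlier results of these data known. The rule gave 62 of the 55421 genes in the table, of which 32 encode ligands and 30 encode receptors. Of these, 60 reached a TPM (a library's share of transcripts on a fixed total, corrected for gene length) of at least 1 in at least 2 libraries and were tested, and Epha6 and Plxnb3 did not.

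Gcnf, also named Nr6a1, encodes germ cell nuclear factor, an orphan nuclear receptor. Embryos at E9.25, with 9 to 11 somites, were either homozygous Gcnf mutants (Gcnf-/-) or wild type, and no treatment is named for either. Each library was poly-A RNA of an anterior piece, made up of pharyngeal arch 1 and all tissue in front of it, or of a posterior piece, made up of arch 2 and all tissue behind it. The 4 groups held 2 libraries each, with the numbers 159 and 163 in both mutant groups and 153 and 156 in both wild-type groups. The sources used here name neither the allele nor the strain, nor whether a library came from 1 embryo or a pool, so the p-values measure the spread between these libraries only.

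Guidance genes encode pairs of cues and receptors that attract or repel growing axons, migrating neural crest cells and sprouting vessels. Secreted class 3 semaphorins are mostly read by neuropilins in complex with plexins, while many membrane-bound semaphorins bind plexins directly. Ephrins and Eph receptors sit on the surfaces of touching cells, signal in both directions and are known for keeping hindbrain segments, somites and neural crest streams apart. Slits repel axons through Robo receptors, and netrin-1 acts through Dcc. Robo4 is the member of its family best known from vascular endothelium.

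Promoters are shown for 4 genes because they were higher in the mutants in both pieces, as described further on. Of the 7 genes with that pattern, these had the largest differences among those with an entry. They came from the RefSeq promoter table on GRCm38.p6, which held 69 promoters for 53 of the 62 members, each of 300 bases from 250 before to 50 after an annotated start. Dcc, Efnb3, Ntn1, Plxna1, Plxna4, Sema3b, Sema3f, Sema6a and Slit1 had no entry. The windows were chr9:37401722-37402021 on the plus strand for Robo4, chr16:63864126-63864425 on the minus strand for Epha3, chr4:136956767-136957066 on the minus strand for Epha8 and chr19:44989094-44989393 on the plus strand for Sema4g. Capitals mark AGGTCA, a core motif of nuclear receptor sites, and ACGTG, the core of the hypoxia response element, on either strand.
Robo4: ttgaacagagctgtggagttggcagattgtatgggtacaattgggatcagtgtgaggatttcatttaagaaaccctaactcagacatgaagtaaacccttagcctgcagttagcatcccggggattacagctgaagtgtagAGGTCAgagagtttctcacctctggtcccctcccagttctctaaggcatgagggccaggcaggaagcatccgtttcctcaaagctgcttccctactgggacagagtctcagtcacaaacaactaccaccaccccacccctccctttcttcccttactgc
Epha3: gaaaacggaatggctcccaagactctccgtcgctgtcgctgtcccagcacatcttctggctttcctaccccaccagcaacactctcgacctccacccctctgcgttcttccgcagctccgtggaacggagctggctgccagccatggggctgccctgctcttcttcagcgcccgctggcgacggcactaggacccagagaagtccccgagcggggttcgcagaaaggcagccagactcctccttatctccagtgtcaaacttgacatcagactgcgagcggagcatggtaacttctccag
Epha8: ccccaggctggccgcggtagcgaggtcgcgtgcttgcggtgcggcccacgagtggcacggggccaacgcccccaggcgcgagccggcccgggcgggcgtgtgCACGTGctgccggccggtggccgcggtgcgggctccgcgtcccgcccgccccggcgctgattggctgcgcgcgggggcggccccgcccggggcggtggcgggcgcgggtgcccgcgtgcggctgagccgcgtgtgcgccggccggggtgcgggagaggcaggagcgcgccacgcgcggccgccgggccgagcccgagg
Sema4g: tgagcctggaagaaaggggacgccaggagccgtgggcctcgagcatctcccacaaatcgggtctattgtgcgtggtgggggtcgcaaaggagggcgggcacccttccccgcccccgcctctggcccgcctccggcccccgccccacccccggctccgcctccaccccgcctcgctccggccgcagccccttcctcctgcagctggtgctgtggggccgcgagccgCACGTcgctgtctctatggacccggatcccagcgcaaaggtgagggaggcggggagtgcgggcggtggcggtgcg

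The Robo4 window held AGGTCA with its first base at -109 from the start site, and the Epha3 window held neither motif. In Epha8, ACGTG lay on both strands at -148 and -147, overlapping within a CACGTG, and in Sema4g it lay at -25 on the opposite strand. Over both strands, AGGTCA was in a promoter of 9 of the 53 members (17% against 18.1% of all genes in the table). ACGTG was in 12 of the 53 (22.6% against 21.8%). The longer TCAAGGTCA, an extended site of the type that Nr6a1 binds, contains AGGTCA and was in 0 of the 53, against 0.466% of all genes. These matches describe letters only, and the members' shares lay near those of all genes.

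The 8 libraries held 27064114 to 52957993 reads in genes, as recovered from TPM and exon length. At that depth, 3 reads in 1 kb of exon corresponded to 0.2 to 0.403 TPM, and the 2 libraries of a group correlated at 0.984 to 0.992 across genes. Hoxa3 and Hoxb3, which mark tissue from the hindbrain back, lay at or under 0.401 TPM in all anterior libraries and at or over 11.6 TPM in all posterior ones. Nr6a1 itself was at 116 to 240 TPM in all 8 libraries, and since the altered part of the gene is not given, its level does not check the genotype labels. Both libraries numbered 159 were the only ones with Xist (25.3 and 30.9 TPM) and without more than 0.155 TPM of the Y-linked Ddx3y, so sex was not balanced between genotypes. Efnb1, Plxna3 and Plxnb3 are X-linked members, and neither of the tested ones, Efnb1 and Plxna3, passed in a genotype effect. The mutant libraries held more transcripts of primitive red cells, whose 8 markers summed to 22100 to 43900 TPM against 4230 to 9880 TPM in the wild type. TPM is a share of a fixed total, so abundant transcripts lower the values of all other genes in the same library. Mir6236, at 19000 to 65300 TPM and highest in posterior wild type 156, takes a share of similar size.

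Plexins, ephrin-B ligands and ephrin-A ligands were at summed levels of 318 to 429 TPM, 237 to 457 TPM and 257 to 364 TPM over the 8 libraries, and EphB receptors at 226 to 296 TPM. Averaged over all libraries, Ephb4 (139 TPM) was the highest member, followed by Plxnb2 (126 TPM), Efnb1 (123 TPM), Efnb3 (119 TPM) and Efnb2 (106 TPM). The SD within a group reached 22 TPM at these genes, so neighbours in this order did not differ beyond their spread. In the remaining families the highest members were Efna2 at 97.3 TPM, Sema4c at 68.1 TPM, Nrp2 at 60.7 TPM, Ntn1 at 51.6 TPM, Epha4 at 42.0 TPM, Sema3f at 38.8 TPM, Slit3 at 29.0 TPM and Robo1 at 27.7 TPM. At the low end, Epha6 had at most 3 reads in a library, between 0 and 0.0403 TPM. Plxnb3 also had at most 3 reads, between 0 and 0.0493 TPM, and no change could be detected in either gene at this depth.

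**Figure D1:**
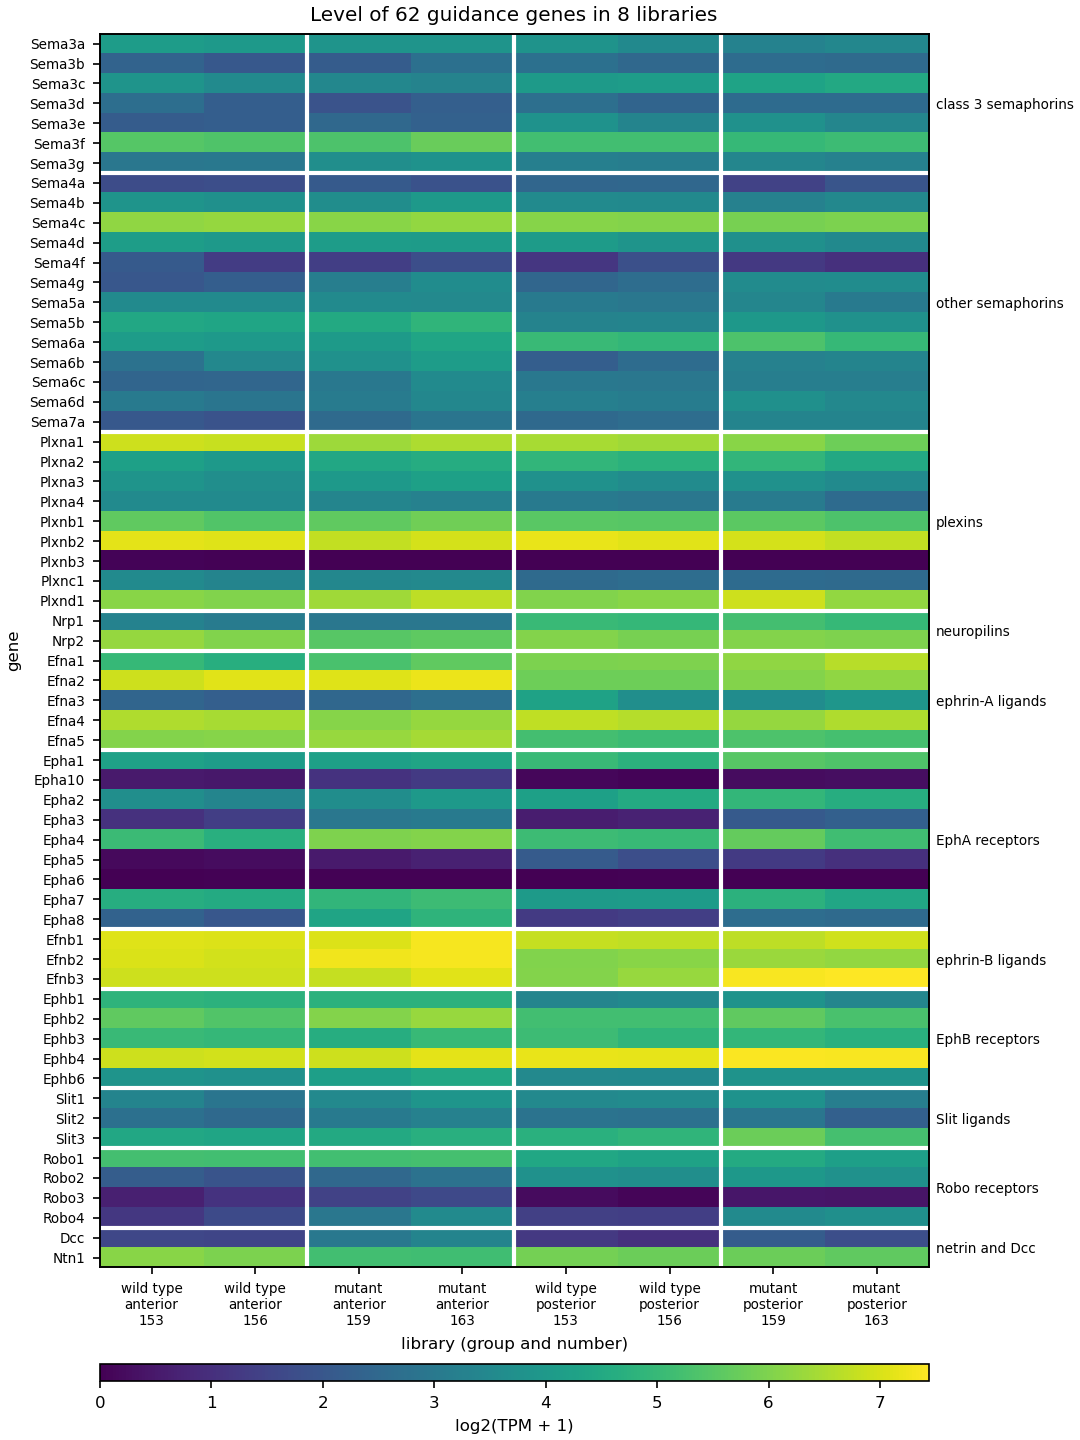
Level of the 62 guidance genes (rows, grouped by family) in each of the 8 libraries (columns, labelled with genotype, piece and number), coloured by log2(TPM + 1). Ephrin-B ligands, Ephb4, Plxna1 and Plxnb2 are bright in all columns, while Epha6 and Plxnb3 are at or near 0 throughout.

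The first question was which guidance genes differed between mutant and wild-type embryos in each piece. In the anterior piece 19 of the 60 tested members differed, 16 higher and 3 lower in the mutants (limma on log2(TPM + 1), Benjamini-Hochberg adjusted p under 0.05 over all 16699 genes). Over all genes tested, 23.6% were called in that comparison, 13.3% as higher and 10.2% as lower, against 31.7% of the members, with 26.7% higher and 5% lower. The median difference of the members was 0.23 on the log2 scale, against 0.02 over all genes. In the posterior piece 15 members differed, 12 higher and 3 lower. That is 25% of the members against 11.5% of all genes, with 20% against 8.56% higher and 5% against 2.93% lower, and the median difference was 0.15 against 0.05.

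The share of members that were higher thus lay above the background in both pieces, by counts alone. The posterior split rested on the scaling: 8 higher and 6 lower passed after median-of-ratios scaling, and 9 and 5 after quantile normalization. The anterior split was 17 and 4 after the former and 14 and 5 after the latter. The libraries of both genotypes did not overlap for 40 of the 60 members in the anterior piece and for 38 in the posterior piece, where 67.3% and 53.2% of all genes did not. Without any 1 library the anterior count ran from 9 to 24 and the posterior count from 3 to 12. It was 9 without anterior mutant 163, 11 without anterior wild type 153 and 10 without anterior wild type 156. The posterior count was 7 without posterior mutant 159, 3 without posterior wild type 153 and 5 without posterior wild type 156. Leaving out both libraries numbered 153 left 3 anterior calls, of Dcc, Epha3 and Epha8, and 0 posterior calls.

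**Figure D2:**
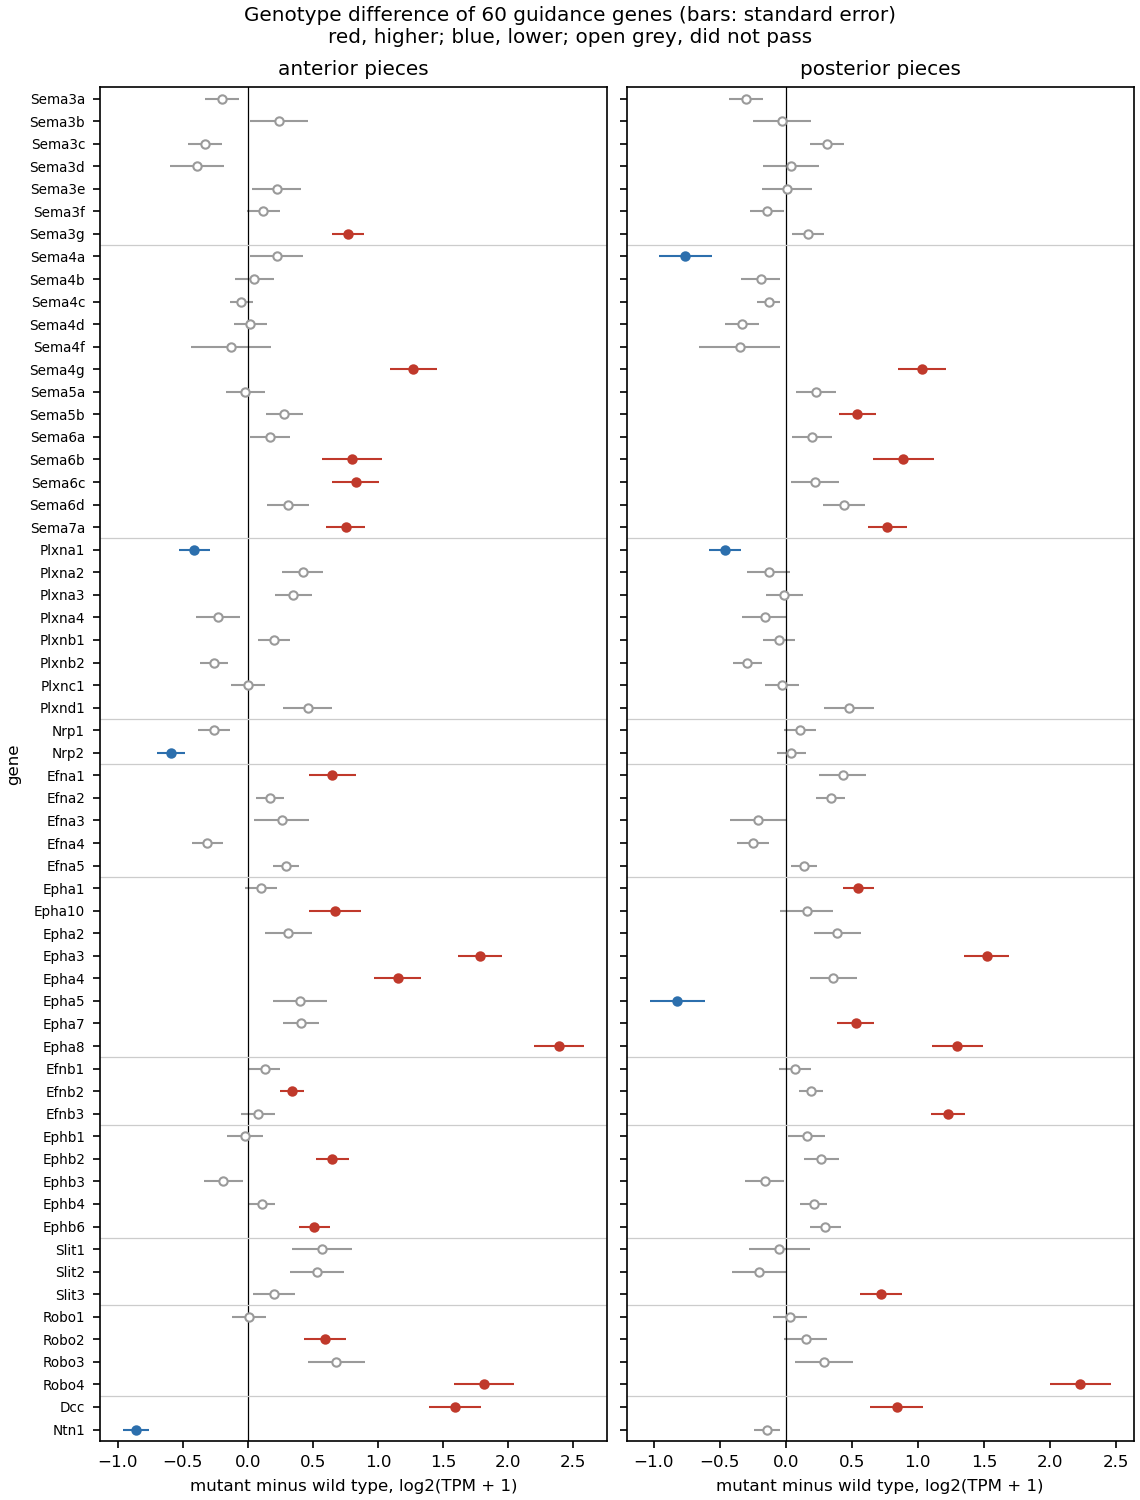
Mutant minus wild type on the scale of log2(TPM + 1) for each tested member (bars, SE), in the anterior and in the posterior piece, with red for higher, blue for lower and open grey for members that did not pass. Epha8, Robo4, Epha3 and Dcc stand farthest to the right in the anterior piece, with 2.39, 1.81, 1.78 and 1.59, and Ntn1 farthest to the left with -0.86.

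In all, 7 members passed as higher in both pieces, namely Dcc, Epha3, Epha8, Robo4, Sema4g, Sema6b and Sema7a, and 1, Plxna1, passed as lower in both. They make up 8 of the 19 anterior calls and 8 of the 15 posterior calls. Of the members, 11.7% were thus higher and 1.67% lower in both pieces, against 5.67% and 1.6% of all genes tested. The 2 comparisons set different libraries against each other, but their p-values use the same spread per gene, estimated over all libraries. Pieces with the same number may also come from the same embryo, which the labels do not say. No member passed in opposite directions, and 41 of the 60 (68.3%) had the same sign in both, against 73% of all genes. In bulk tissue, fewer cells that express a gene and less RNA per cell cannot be told apart, here and in all that follows.

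EphA receptors bind mainly ephrin-A ligands. Summed over the 9 EphA genes, the level was 92.1 and 78.2 TPM in the anterior wild-type libraries and 149 and 170 TPM in the anterior mutants. In the posterior piece the sums were 103 and 101 TPM in wild type and 161 and 130 TPM in the mutants. Mutant and wild-type libraries were therefore apart in both pieces. Of the 8 tested EphA genes, 4 passed as higher in the anterior piece (Epha3, Epha4, Epha8 and Epha10), and in the posterior piece 4 passed as higher (Epha1, Epha3, Epha7 and Epha8) and 1 as lower (Epha5).

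Epha8, a receptor known from the developing midbrain, was at 4.07 and 3.08 TPM in the anterior wild-type libraries and at 19.1 and 27.4 TPM in the mutants. The posterior values were 1.40 and 1.60 TPM in wild type and 5.36 and 4.95 TPM in the mutants. No mutant library came near a wild-type one in either piece, and the means differed 6.51-fold and 3.44-fold. On the log2 scale the differences were 2.39 ± 0.19 (SE, adjusted p = 1.6e-04) and 1.30 ± 0.19 (adjusted p = 0.0044). Ephb2, the neighbouring member 93430 bases away on the same strand of chromosome 4, passed in the anterior piece and is described with the EphB receptors.

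Epha3, a receptor of ephrin-A ligands found on axons and mesenchyme, rose from 1.07 and 1.58 TPM to 6.78 and 7.13 TPM in the anterior piece. In the posterior piece it rose from 0.526 and 0.646 TPM to 3.30 and 3.83 TPM. The lowest mutant library was thus above the highest wild-type library of either piece. The means differed 5.25-fold and 6.08-fold, with log2 differences of 1.78 ± 0.17 (adjusted p = 3.8e-04) and 1.52 ± 0.17 (adjusted p = 0.0014). Low wild-type levels, from 34 to 132 reads, make the log2(TPM + 1) scale understate these changes.

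Epha4, which binds both classes of ephrin and marks alternate hindbrain segments, was at 32.5 and 24.9 TPM in the anterior wild type and at 63.4 and 65.2 TPM in the anterior mutants. The difference was 1.15 ± 0.18 (adjusted p = 0.003). Its posterior values, 33.2 and 31.5 TPM in wild type and 50.4 and 34.7 TPM in the mutants, did not overlap but did not pass (0.36 ± 0.18, adjusted p = 0.23). The effects of the 2 pieces were not shown to differ (adjusted p = 0.23). The anterior wild-type libraries were unequal in hindbrain tissue: Egr2, a hindbrain segment marker, was at 6.87 TPM in number 153 and at 0.338 TPM in number 156. None of the 7 hindbrain segment markers passed in either genotype effect, and their sum was 9.6 to 26.2 TPM in the anterior wild type and 14.2 to 33.5 TPM in the anterior mutants.

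Epha1, the EphA receptor best known from epithelia, rose from 31.6 and 26.3 TPM to 44.7 and 40.6 TPM in the posterior piece (0.55 ± 0.12, adjusted p = 0.026). Its exons share 236 bases with Zyx on the opposite strand, which was at 68 to 127 TPM, and the libraries do not mark strand, so reads of both cannot be told apart there. Epha7, a receptor for ephrin-A ligands linked to neural tube closure, rose from 15.5 and 15.8 TPM to 26.2 and 20.3 TPM (0.53 ± 0.14, adjusted p = 0.04). Epha5 moved the other way, from 3.40 and 2.45 TPM in the posterior wild type to 1.40 and 1.03 TPM in the mutants (-0.82 ± 0.21, adjusted p = 0.038). In the anterior piece Epha5 lay at 0.134 and 0.175 TPM in wild type and at 0.457 and 0.603 TPM in the mutants, which did not pass (0.40 ± 0.21, adjusted p = 0.19). Epha10, whose product lacks kinase activity, was at 0.444 and 0.406 TPM in the anterior wild type and at 1.14 and 1.40 TPM in the mutants (0.67 ± 0.20, adjusted p = 0.041). It was tested only because the anterior mutants exceeded 1 TPM, so the groups could not overlap and the direction was set by the filter. Epha2 was the remaining tested EphA gene and passed in neither piece (0.31 ± 0.18 and 0.39 ± 0.18).

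Among the EphA calls, Epha3, Epha4 and Epha8 in the anterior piece and Epha3 in the posterior piece held without any 1 library. The posterior call of Epha8 was lost without posterior wild type 153 (adjusted p = 0.06), and that of Epha1 without that library (0.06), posterior wild type 156 (0.13) or posterior mutant 159 (0.087). Epha10 lost its call without any of 6 libraries (adjusted p = 0.054 to 0.17), Epha5 without any of 6 (0.056 to 0.21) and Epha7 without any of 7 (0.05 to 0.18). Epha7 also failed after both other scalings (0.058 and 0.056), Epha10 under quantile normalization (0.084) and with pseudocounts of 0.1 (0.13) and 0.5 (0.055), and Epha5 with the same pseudocounts (0.097 and 0.052).

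Among the 5 EphB receptors, 2 passed as higher in the anterior piece and 0 in the posterior piece by limma, where 1 had an unadjusted p under 0.05. Ephb2, an EphB receptor of commissural axons, was at 48.2 and 42.1 TPM in the anterior wild type and at 65.9 and 77.3 TPM in the mutants (0.65 ± 0.13, adjusted p = 0.0098). Ephb6, which lacks kinase activity, was at 13.5 and 12.6 TPM and at 17.2 and 21.1 TPM (0.51 ± 0.12, adjusted p = 0.019). Both genes were higher in each anterior mutant library than in each wild-type one. Ephb2 lost its call without anterior mutant 163 (adjusted p = 0.072) or anterior wild type 156 (0.079), and Ephb6 without anterior mutant 163 (0.11) or either anterior wild-type library (0.083 and 0.13). Ephb4, the venous receptor of ephrin-B2, did not pass in either piece, with 0.11 ± 0.10 (adjusted p = 0.47) and 0.21 ± 0.10 (adjusted p = 0.22).

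Of the ephrin ligands, Efna1 and Efnb2 passed in the anterior piece and Efnb3 in the posterior piece. Efna1, an ephrin-A ligand of endothelium and epithelia, was at 30.3 and 24.2 TPM in the anterior wild type and at 38.4 and 48.1 TPM in the mutants (0.65 ± 0.18, adjusted p = 0.029). Efnb2, the arterial ligand of Ephb4, was at 128 and 120 TPM and at 154 and 161 TPM (0.34 ± 0.09, adjusted p = 0.026). That is 1 of 5 ephrin-A and 1 of 3 ephrin-B ligands in the anterior piece. Efna1 was not called without anterior mutant 163 (adjusted p = 0.18), anterior wild type 156 (0.18) or either posterior wild-type library (0.058). Efnb2 was not called without any 1 of the 4 anterior libraries (0.066 to 0.2).

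Efnb3, a ligand of the neural midline that repels corticospinal and other axons, showed the clearest difference between the pieces. Anterior levels were 117 and 115 TPM in wild type and 110 and 136 TPM in the mutants, so the groups overlapped (0.08 ± 0.13, adjusted p = 0.69). Posterior levels were 65.2 and 77.7 TPM in wild type and 164 and 172 TPM in the mutants, a 2.35-fold difference with no overlap (1.23 ± 0.13, adjusted p = 9.5e-04). That posterior call held without any 1 library. The anterior effect minus the posterior effect was -1.15 ± 0.18 (adjusted p = 0.026), and Efnb3 was the only 1 of the 60 members called in that comparison, in which 1.01% of all genes were called, 0.413% with a positive and 0.599% with a negative difference.

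The call of the Efnb3 difference was lost without anterior mutant 159 (adjusted p = 0.07), anterior wild type 153 (0.099) or 156 (0.086), and posterior wild type 153 (0.13) or 156 (0.081). It was also lost under median-of-ratios scaling (-1.10, adjusted p = 0.054) and quantile normalization (-1.02, adjusted p = 0.066). Over the 18 alternatives the difference stayed between -1.30 and -0.99. A further 13 members had an unadjusted p under 0.05 for the difference and did not pass, led by Ntn1 (-0.72 ± 0.15, adjusted p = 0.072), Epha5 (1.23 ± 0.29, adjusted p = 0.11), Nrp2 (-0.63 ± 0.15, adjusted p = 0.12) and Epha8 (1.09 ± 0.27, adjusted p = 0.12). For all other members the effects in the 2 pieces were therefore not shown to differ.

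Robo4 was the member with the largest posterior rise. Its anterior levels were 1.29 and 2.18 TPM in wild type and 6.64 and 10.7 TPM in the mutants, and its posterior levels were 1.65 and 1.60 TPM and 10.8 and 11.9 TPM. All 4 mutant libraries lay above all 4 wild-type libraries, with means 4.99-fold and 6.99-fold apart. The differences were 1.81 ± 0.23 (adjusted p = 0.0012) and 2.23 ± 0.23 (adjusted p = 9.7e-04), and both held without any 1 library. Robo3, which lies 553 bases from Robo4 on the other strand with the gene ends facing each other, was at 0.576 and 1.13 TPM in the anterior wild type and 1.79 and 2.09 TPM in the mutants, just outside the threshold (0.68 ± 0.22, adjusted p = 0.051).

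Robo4 is known from endothelial cells, so endothelial markers were set beside it. Their summed level over 15 genes was 398 to 450 TPM in the anterior wild type, 454 to 600 TPM in the anterior mutants, 517 to 522 TPM in the posterior wild type and 713 to 724 TPM in the posterior mutants, and no marker was at 0. In the anterior piece 4 of the 15 rose (Cldn5, Pecam1, Flt1 and Ets2) and 1, Etv2, fell, and in the posterior piece 3 rose (Cldn5, Pecam1 and Sox17) and Etv2 fell. As a share of the summed endothelial markers, Robo4 was at 0.287% and 0.548% in the anterior wild type and at 1.46% and 1.78% in the anterior mutants. The posterior shares were 0.319% and 0.307% against 1.49% and 1.67%, so Robo4 rose more than the sum of the markers did. Hypoxia target genes also moved with the genotype: 10 of 12 were higher in the anterior and 11 of 12 in the posterior mutants, with none lower and sums of 4300 to 5210 TPM in wild type and 6210 to 7590 TPM in the mutants. The part of endothelial cells in the rise of Robo4, and that of hypoxia targets in any change of the guidance genes, was not tested.

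The other Robo and Slit genes changed less. Robo2, a Slit receptor of commissural and cranial axons, was at 3.57 and 2.81 TPM in the anterior wild type and at 4.70 and 5.91 TPM in the mutants (0.59 ± 0.16, adjusted p = 0.028). Slit3, the Slit most expressed here, rose from 25.4 and 28.3 TPM to 53.5 and 37.2 TPM in the posterior piece (0.72 ± 0.16, adjusted p = 0.028). Neither call held throughout: Robo2 lost it without anterior mutant 163 (adjusted p = 0.16) or anterior wild type 153 (0.057) or 156 (0.18), and Slit3 without posterior mutant 159 (0.076) or posterior wild type 153 (0.18) or 156 (0.092). Robo2 also failed under quantile normalization (0.088) and Slit3 under median-of-ratios scaling (0.05). Robo1, the most abundant Robo, was nearly equal in both genotypes, with 0.01 ± 0.13 in the anterior and 0.03 ± 0.13 in the posterior piece. Slit1 and Slit2 passed in neither piece.

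Netrin-1 and its receptor Dcc moved in opposite directions in the anterior piece. Dcc was at 2.01 and 1.93 TPM in the anterior wild type and at 6.82 and 9.23 TPM in the mutants, a 4.08-fold difference (1.59 ± 0.20, adjusted p = 0.001). Ntn1 was at 67.9 and 61.2 TPM and at 35.6 and 34.5 TPM, a fall to 0.544 of the wild-type mean (-0.86 ± 0.10, adjusted p = 9.5e-04). Neither gene had overlapping groups, and both calls held without any 1 library. In the posterior piece Dcc rose from 1.35 and 1.03 TPM to 3.44 and 2.47 TPM (0.84 ± 0.20, adjusted p = 0.029), a call lost without posterior mutant 159 (0.11) or posterior wild type 153 (0.11) or 156 (0.14). Posterior Ntn1 was at 58.4 and 53.9 TPM in wild type and at 53.9 and 47.7 TPM in the mutants and did not pass (-0.14 ± 0.10, adjusted p = 0.42).

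Dcc is carried by growing axons, and markers of axons and early neurons were higher in the mutants. In the anterior piece 11 of 14 passed as higher, and in the posterior piece 9 of 14, with 0 lower in both. Of the 14, Dcx, Neurod1, Neurod4 and Nhlh1 were under 1 TPM in all wild-type libraries. They were tested only through mutant libraries, so their direction was set by the filter. Their summed level was 296 to 315 TPM in the anterior wild type and 610 to 859 TPM in the anterior mutants, and 169 to 174 TPM and 280 to 282 TPM in the posterior piece, and no marker was at 0. As a share of that sum, Dcc was at 0.638% and 0.652% in the anterior wild type and at 1.12% and 1.07% in the anterior mutants, and Epha8 at 1.29% and 1.04% against 3.13% and 3.19%. Epha3 was at 0.34% and 0.534% against 1.11% and 0.83%, so all 3 genes rose more than the sum. Tubb3 and Gap43 made up most of that sum in the anterior piece. Tubb3 was at 108 and 117 TPM in wild type and at 321 and 473 TPM in the mutants. Gap43 overlapped, at 123 and 106 TPM against 108 and 147 TPM. The comparison therefore holds for the sum and not for each marker. Elavl3 rose by a larger factor than the 3 genes, from 1.22 and 1.8 TPM to 13.9 and 18.4 TPM. So did the anterior means of Dcx (0.431 to 5.8 TPM), Neurod1 (0.406 to 7.12 TPM), Neurod4 (0.346 to 9.27 TPM) and Nhlh1 (0.403 to 17.5 TPM). The means of the remaining markers rose by smaller factors than those of the 3 genes. Of the 14 neural crest markers, 0 passed as higher and 9 as lower in the anterior piece, and posteriorly 2 were higher and 5 lower. Tfap2a and Ednrb did not pass but were higher in each anterior mutant library. Tfap2a was at 29.7 and 32.6 TPM in the anterior wild type against 36.5 and 44.4 TPM, and Ednrb at 13.6 and 11.4 TPM against 15.1 and 15.8 TPM. Sums over the 14 were 2320 to 2810 TPM in the anterior wild type and 1750 to 2890 TPM in the anterior mutants, and so overlapped. Crabp1 alone made up 1280 to 2340 TPM of the anterior sums. Neural progenitor markers were higher too, 3 of 8 in the anterior and 4 of 8 in the posterior piece with 0 lower. Their sums were 801 to 814 TPM in the anterior wild type and 1110 to 1300 TPM in the anterior mutants, and 370 to 422 TPM and 710 to 726 TPM in the posterior piece. The part of these cell types in the changes of the guidance genes was not tested.

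**Figure D3:**
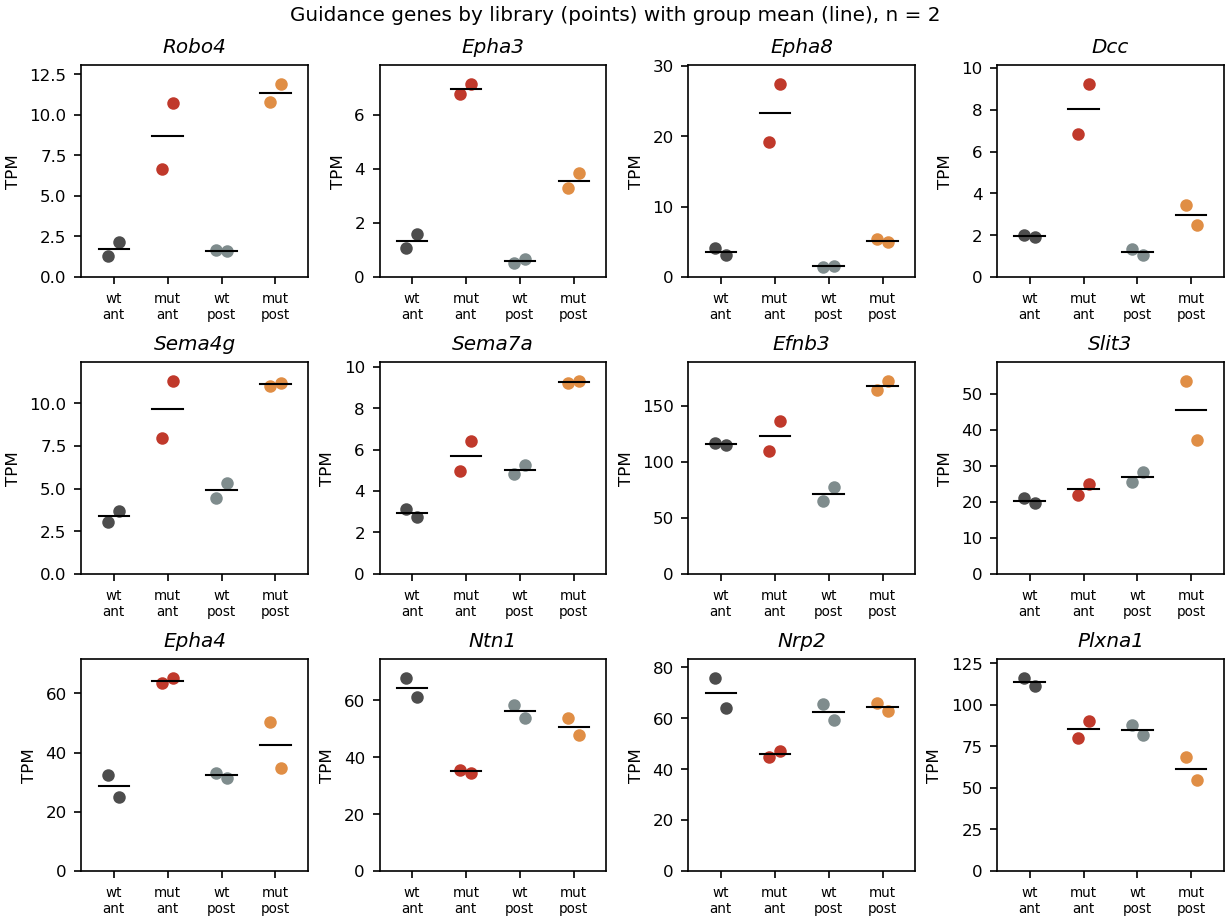
TPM by library (points) with the group mean (line), n = 2, for guidance genes that differed between the genotypes. Robo4, Epha3, Epha8 and Dcc are higher in the mutant libraries of both pieces, Efnb3 only in the posterior piece (164 and 172 TPM), and Ntn1 is lower in the anterior mutants (35.6 and 34.5 TPM).

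Most semaphorin calls were rises, as were 56.6% of the anterior and 74.5% of the posterior calls over all genes. Among the 13 semaphorins of classes 4 to 7, 4 passed as higher in the anterior piece (Sema4g, Sema6b, Sema6c and Sema7a), and in the posterior piece 4 passed as higher (Sema4g, Sema5b, Sema6b and Sema7a) and 1 as lower (Sema4a). Of the 7 class 3 semaphorins, which are the secreted ligands of neuropilins, only Sema3g passed, in the anterior piece. Summed over class 3 the levels overlapped between the genotypes, at 83.7 to 92.9 TPM and 86.3 to 101 TPM in the anterior piece.

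Sema4g, a membrane-bound semaphorin that binds class B plexins, was at 3.03 and 3.71 TPM in the anterior wild type and at 7.99 and 11.3 TPM in the mutants. Its posterior values were 4.47 and 5.35 TPM and 11.0 and 11.2 TPM. The mutant libraries were all above the wild-type libraries, 2.86-fold and 2.25-fold by the means. The differences were 1.27 ± 0.18 (adjusted p = 0.0018), which held without any 1 library, and 1.03 ± 0.18 (adjusted p = 0.0086), which was lost without posterior wild type 153 (0.092).

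Sema7a, a membrane-anchored ligand of plexin C1 and integrins that promotes axon growth, rose from 3.14 and 2.75 TPM to 4.94 and 6.42 TPM in the anterior piece (0.75 ± 0.15, adjusted p = 0.0089). In the posterior piece it rose from 4.81 and 5.26 TPM to 9.22 and 9.30 TPM (0.77 ± 0.15, adjusted p = 0.016). Plxnc1, its plexin, was nearly equal in both genotypes, at 10.8 and 9.31 TPM against 9.82 and 10.3 TPM in the anterior piece. The anterior call of Sema7a was lost without anterior mutant 163 (adjusted p = 0.06) or anterior wild type 156 (0.066), and the posterior call without posterior mutant 163 (0.054) or posterior wild type 153 (0.12) or 156 (0.069).

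Sema3g, a class 3 semaphorin known from endothelium, was at 6.76 and 6.83 TPM in the anterior wild type and at 11.8 and 12.9 TPM in the mutants (0.77 ± 0.12, adjusted p = 0.003), and its call held without any 1 library. Posterior Sema3g, 8.17 and 7.90 TPM against 9.70 and 8.65 TPM, did not pass. Sema6b and Sema6c belong to the transmembrane class that acts through class A plexins. Sema6b was at 5.99 and 10.0 TPM against 12.5 and 16.3 TPM in the anterior piece (0.80 ± 0.23, adjusted p = 0.04) and at 3.66 and 5.14 TPM against 8.57 and 9.23 TPM in the posterior piece (0.89 ± 0.23, adjusted p = 0.044). Sema6c was at 4.38 and 4.43 TPM against 6.91 and 10.7 TPM in the anterior piece (0.83 ± 0.18, adjusted p = 0.012). Sema6b lost both calls after either other scaling (anterior 0.059 and 0.11, posterior 0.069 and 0.099), its anterior call without any of 5 libraries (0.056 to 0.25) and its posterior call without any of 6 (0.057 to 0.26). Sema6c lost its call without anterior mutant 163 (0.055) or anterior wild type 153 (0.066) or 156 (0.057).

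Sema5b, a transmembrane semaphorin with thrombospondin repeats, rose in the posterior piece from 8.96 and 9.13 TPM to 14.7 and 12.6 TPM (0.54 ± 0.14, adjusted p = 0.046). Sema4a, a ligand known from the immune system and retina, fell there from 4.45 and 4.62 TPM to 1.74 and 2.90 TPM (-0.76 ± 0.20, adjusted p = 0.042). Both were near the threshold: Sema5b lost its call without any of 6 libraries (adjusted p = 0.056 to 0.19) and after both other scalings (0.053 and 0.08), and Sema4a without any of 7 libraries (0.053 to 0.17). Sema4c, the most abundant semaphorin, was at 65.6 to 74.8 TPM in wild type and at 59.5 to 74.7 TPM in the mutants, and passed in neither piece.

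Among plexins and neuropilins, the receptors of semaphorins, no gene passed as higher in the mutants. Plxna1, a class A plexin that pairs with neuropilins, was at 116 and 111 TPM in the anterior wild type and at 80.2 and 90.3 TPM in the mutants (-0.41 ± 0.12, adjusted p = 0.04). The posterior values were 87.5 and 81.7 TPM and 68.3 and 54.7 TPM (-0.46 ± 0.12, adjusted p = 0.044). Plxnd1, the endothelial plexin of Sema3e, was at 68.2 and 64.2 TPM against 82.5 and 102 TPM in the anterior piece and at 64.2 and 68.1 TPM against 115 and 74.7 TPM in the posterior piece, and did not pass (0.46, adjusted p = 0.11, and 0.48, adjusted p = 0.13). Plxna1 was the only plexin among 8 tested that passed in either genotype effect, and it was lower in each mutant library of both pieces. Its anterior call was lost without any of 6 libraries (adjusted p = 0.06 to 0.2) and under quantile normalization (0.082), and its posterior call without any of 7 libraries (0.056 to 0.21).

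Nrp2, the neuropilin of class 3 semaphorins such as Sema3f, was at 75.7 and 64.1 TPM in the anterior wild type and at 44.7 and 47.2 TPM in the mutants. The fall was -0.59 ± 0.11 (adjusted p = 0.0063), and the call was lost without anterior wild type 153 (0.074). Posterior Nrp2 was nearly equal, at 65.7 and 59.2 TPM in wild type and 66.0 and 62.8 TPM in the mutants (0.04 ± 0.11, adjusted p = 0.83). Nrp2 is also carried by cranial neural crest. Of the 14 crest markers, 9 passed as lower and 0 as higher in the anterior mutants, with overlapping sums, as given with Dcc. The part of neural crest in the fall of Nrp2 was not tested. Nrp1, the other neuropilin, was at 8.87 and 7.55 TPM against 6.69 and 6.67 TPM in the anterior piece and did not pass (-0.26 ± 0.12, adjusted p = 0.17).

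The second question was how the pieces differed along the body axis within each genotype. In wild type 23 of the 60 members differed between the pieces, 12 higher and 11 lower in the posterior piece, or 38.3% against 14.5% of all genes (7.86% higher and 6.65% lower). In the mutants 33 differed, 15 higher and 18 lower, or 55% against 16.1% of all genes (8.01% and 8.1%). The share of members that differed by region was above the background in both genotypes. Among these calls, Epha5 in wild type and Epha10 and Robo3 in the mutants reached 1 TPM in no library of the other piece. They passed the filter only through the piece where they were higher, so the direction of these calls was set by it. The libraries of the pieces did not overlap for 49 and 51 of the 60 members, where 63.1% and 52.1% of all genes did not. The median over all genes was shifted by -0.10 between the wild-type pieces, and the members' median by -0.06; in the mutants the medians were -0.04 and -0.26.

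Of these calls, 17 were shared with the same direction, out of the 23 in wild type and the 33 in the mutants. Both comparisons set different libraries against each other, but their p-values use the same spread per gene, estimated over all libraries. Without any 1 library, 14 of the 23 and 16 of the 33 calls held. Higher posteriorly in both genotypes were Efna1, Efna3, Epha1, Epha2, Nrp1, Robo2, Sema3e, Sema6a and Sema7a. Lower posteriorly in both were Efna2, Efna5, Efnb2, Epha8, Ephb1, Plxnc1, Robo1 and Sema5b. Members of 1 family thus went both ways, as in the ephrin-A ligands, where 2 were higher and 2 lower, and in the Robo receptors. Over all genes tested, 4.88% were higher and 3.74% lower posteriorly in both genotypes, against 15% and 13.3% of the members. The pieces also differed in their tissues: 9 of 12 somite markers in wild type and 8 in the mutants were higher posteriorly, and 8 and 6 of 8 visceral endoderm markers, while 5 and 4 of 8 neural progenitor markers and 7 of 14 neural crest markers in each genotype were lower. The part of these tissues in the regional differences was not tested. Among the somite markers, Hes7, Msgn1 and Mesp2 passed the filter only through posterior libraries.

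Nrp1, the neuropilin shared by Sema3a and vascular endothelial growth factor, had the largest regional difference on the log2(TPM + 1) scale in wild type and in the mutants. It was at 8.87 and 7.55 TPM in the anterior wild type and at 31.6 and 30.1 TPM in the posterior wild type (1.79 ± 0.12, adjusted p = 2.9e-05). The mutant values were 6.69 and 6.67 TPM and 36.0 and 30.7 TPM (2.16 ± 0.12, adjusted p = 7.9e-06). Nrp2 stood at similar levels in both pieces of the wild type, so the pieces differed in the proportion of the neuropilins. In the mutants Nrp2 was higher posteriorly (0.48 ± 0.11, adjusted p = 0.018), a call lost without anterior mutant 159 (0.1) or 163 (0.061) or posterior mutant 159 (0.058).

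Epha5 was at 0.134 and 0.175 TPM in the anterior wild type and at 3.40 and 2.45 TPM in the posterior wild type (1.76 ± 0.21, adjusted p = 6.6e-04), a 19.0-fold difference in the means, against 3.75-fold for Nrp1, which that scale understates at such low levels. Robo2 was at 3.57 and 2.81 TPM and at 12.6 and 11.7 TPM (1.66 ± 0.16, adjusted p = 2.0e-04), while Robo1 went from 36.2 and 35.2 TPM down to 20.5 and 18.3 TPM (-0.85 ± 0.13, adjusted p = 0.0028). Efna3, at 4.38 and 3.73 TPM anteriorly, was at 18.3 and 11.7 TPM posteriorly (1.64 ± 0.21, adjusted p = 0.0011). Sema3e, a class 3 semaphorin that binds plexin D1 without a neuropilin and shapes intersomitic vessels, went from 3.48 and 3.66 TPM to 12.9 and 9.29 TPM (1.39 ± 0.19, adjusted p = 0.0015). Nrp1, Epha5, Robo2, Efna3 and Sema3e had the largest posterior excess in wild type, and their calls and that of Robo1 held without any 1 library. Epha5 was tested only through posterior libraries, so its direction was set by the filter.

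On the anterior side of the wild type, Ephb1 was at 27.6 and 26.4 TPM against 9.46 and 10.5 TPM posteriorly (-1.35 ± 0.14, adjusted p = 3.5e-04). Efna2 was at 115 and 136 TPM against 54.0 and 54.1 TPM (-1.20 ± 0.11, adjusted p = 1.8e-04), and Sema5b at 20.9 and 19.8 TPM against 8.96 and 9.13 TPM (-1.09 ± 0.14, adjusted p = 0.0013). Efna5 was at 66.0 and 67.0 TPM against 36.4 and 33.0 TPM (-0.92 ± 0.10, adjusted p = 4.7e-04), and Efnb2 at 128 and 120 TPM against 64.3 and 68.3 TPM (-0.90 ± 0.09, adjusted p = 2.7e-04). These 5 ligands and receptors were all higher in each anterior library than in each posterior one, and held without any 1 library. Epha8, Epha7 and Efnb3 were also lower posteriorly (-0.87 ± 0.19, -0.54 ± 0.14 and -0.69 ± 0.13), with calls that were lost without some libraries: Epha8 without anterior wild type 153 (adjusted p = 0.12) or posterior wild type 153 (0.1) or 156 (0.081), Epha7 without any 1 of the 4 wild-type libraries (0.11 to 0.17) and Efnb3 without posterior wild type 153 (0.061).

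In the mutants the largest posterior excess after Nrp1 was in Robo2 (1.21 ± 0.16, adjusted p = 0.001), Sema3e (1.18 ± 0.19, adjusted p = 0.0032), Efna3 (1.17 ± 0.21, adjusted p = 0.0054) and Epha1 (1.16 ± 0.12, adjusted p = 3.3e-04). The largest anterior excess was in Epha8 (-1.96 ± 0.19, adjusted p = 2.0e-04), Dcc (-1.19 ± 0.20, adjusted p = 0.0037), Ephb1 (-1.17 ± 0.14, adjusted p = 7.0e-04), Robo3 (-1.11 ± 0.22, adjusted p = 0.0086) and Efna5 (-1.07 ± 0.10, adjusted p = 1.6e-04). Robo3 alone among these lost its call without 1 library, anterior mutant 163 (0.055). It was tested only through anterior libraries, so its direction was set by the filter. Dcc and Robo3, both carried by commissural axons, passed in the mutants and not in wild type, and so did 13 further members. Axon and early neuron markers were lower posteriorly for 11 of 14 in the mutants and 3 of 14 in wild type, with 1 higher in each. Whether those regional differences changed with the genotype is the comparison of the genotype effects given with Efnb3, which only Efnb3 passed.

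Efnb3 was the only member with opposite calls, lower posteriorly in wild type (-0.69 ± 0.13, adjusted p = 0.0066) and higher posteriorly in the mutants (0.45 ± 0.13, adjusted p = 0.04). The mutant call was lost without anterior mutant 159 (adjusted p = 0.22), either posterior mutant library (0.068 and 0.14) or either anterior wild-type library (0.07), and under quantile normalization (0.055). Plxnb2, Efnb1, Plxnd1, Efna4, Sema4c and Slit2 were among the tested members that passed in none of the 5 comparisons.

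**Figure D4:**
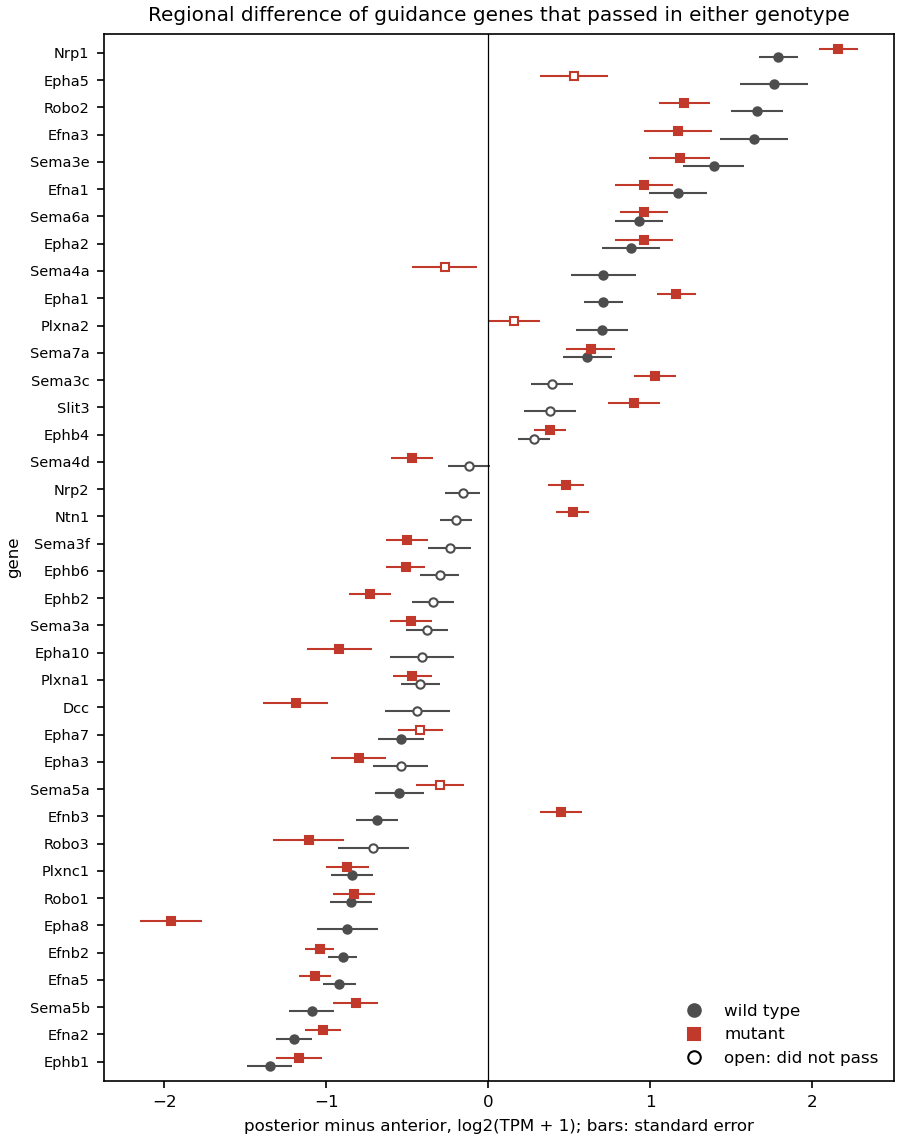
Posterior minus anterior difference on the scale of log2(TPM + 1), with its SE as a bar, in wild type (grey circles) and in the mutants (red squares), for the 38 members that passed in at least 1 genotype; open symbols did not pass. Nrp1 is at the top (1.79 and 2.16) and Ephb1 at the bottom (-1.35 and -1.17), and Efnb3 is the gene whose filled symbols lie on opposite sides of 0 (-0.69 and 0.45).

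Relatives and partners of these genes were taken from lists made by function, with earlier results of these data known. As background for the counts of these lists, 13.3% of all genes were higher and 10.2% lower in the anterior mutants. In the posterior mutants the shares were 8.56% and 2.93%. Of 12 tested netrin, Unc5, neogenin and Rgm relatives, 5 rose and 0 fell in the anterior piece, and 2 rose and 0 fell in the posterior piece. Unc5a, a netrin receptor that mediates repulsion, was at 4.55 and 5.36 TPM in the posterior wild type and at 23.7 and 23.8 TPM in the posterior mutants (2.06 ± 0.17, adjusted p = 3.8e-04). In the anterior piece it was at 4.12 and 5.63 TPM against 4.83 and 6.16 TPM and did not pass, and the effects differed (-1.91 ± 0.24, adjusted p = 0.011). As for Efnb3, the rise of Unc5a was in the posterior piece. The anterior rises were in Unc5b (0.77 ± 0.12), Draxin, a secreted netrin antagonist (1.14 ± 0.18), Ntn4 (1.13 ± 0.22), Unc5c (0.73 ± 0.16) and, named after its value was seen, Rgma (0.52 ± 0.12), all at adjusted p of 0.0029 to 0.015. Without posterior wild type 153 or 156 the Unc5a effects no longer differed by the test (0.1 and 0.071). Ntn4 lost its call without anterior wild type 153 (0.058) and Unc5c without anterior mutant 163 (0.077) or anterior wild type 156 (0.086).

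Among 11 Flrt, Slitrk, Lrig and Cxcl12 pathway genes, 2 rose and 5 fell in the anterior piece, and 2 rose and 0 fell in the posterior piece. Flrt1, an adhesion molecule that binds latrophilins and Unc5 receptors, was at 10.8 and 10.9 TPM in the anterior wild type and at 1.28 and 1.55 TPM in the mutants (-2.30 ± 0.17, adjusted p = 1.0e-04). It lay between 0.557 and 0.759 TPM in all posterior libraries, and the effects of the pieces differed (-2.34 ± 0.23, adjusted p = 0.0047). Cxcr4 and Ackr3, both receptors of Cxcl12, rose in both pieces, by 0.66 ± 0.12 and 0.67 ± 0.15 in the anterior and 0.60 ± 0.12 and 0.76 ± 0.15 in the posterior piece (adjusted p = 0.0064, 0.013, 0.018 and 0.015). Slitrk1 (-1.02 ± 0.20) and Slitrk6 (-0.96 ± 0.21) were among the anterior falls. Slitrk1 reached 1 TPM only in the anterior wild type (1.65 and 1.75 TPM), and Slitrk6 only in wild-type libraries. Both were tested only for that reason, so the direction of their falls was set by the filter. Slitrk1 lost its call without anterior wild type 153 (0.053) or 156 (0.057) and Slitrk6 without that number 153 (0.11) or anterior mutant 163 (0.065). The posterior calls of Cxcr4 and Ackr3 were lost without posterior wild type 153 (0.12 and 0.054) or 156 (0.083 and 0.097), and that of Ackr3 also without posterior mutant 163 (0.061).

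Of 16 tested co-receptors and partners of plexins, neuropilins and Robo, 4 rose and 4 fell in the anterior piece and 1 did each in the posterior piece. Cntn2, an axonal adhesion molecule, rose in the anterior piece from 0.928 and 0.751 TPM to 6.32 and 9.89 TPM (2.28 ± 0.23, adjusted p = 4.1e-04). It was under 1 TPM in all wild-type libraries and was tested only through mutant ones, so its direction was set by the filter. In the same list, Islr2 was tested only through the anterior mutants and Lrtm1 only through the anterior wild type. Vegfa, a ligand of Nrp1 and itself a hypoxia target, rose in both (0.86 ± 0.10 and 0.95 ± 0.10), and the heparan sulfate proteoglycan Sdc3 fell in both (-1.04 ± 0.13 and -0.48 ± 0.13). Sdc1 fell in the anterior piece (-0.70 ± 0.11). Among 43 cytoplasmic effectors, 5 rose and 2 fell in the anterior and 4 rose and 1 fell in the posterior piece. These counts lay near or under the shares over all genes, 23.6% called in the anterior and 11.5% in the posterior piece. Rnd1, a small GTPase that binds plexins, fell from 12.4 and 10.7 TPM to 2.68 and 3.25 TPM in the anterior and from 8.56 and 6.45 TPM to 1.93 and 2.35 TPM in the posterior piece (-1.66 ± 0.17 and -1.43 ± 0.17, adjusted p = 4.9e-04 and 0.0019). Rras, a target of the GTPase-activating domain of plexins, rose in both (0.94 ± 0.13 and 0.83 ± 0.13), and so did Srgap3, a Robo effector (0.76 ± 0.15 and 0.85 ± 0.15). The anterior call of Srgap3 was lost without anterior mutant 163 (0.053), and the posterior calls of Rras and Srgap3 without posterior wild type 153 (0.059 and 0.092) or 156 (0.059 and 0.05). Posterior Sdc3 lost its call without any of 5 libraries (0.081 to 0.18).

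**Figure D5:**
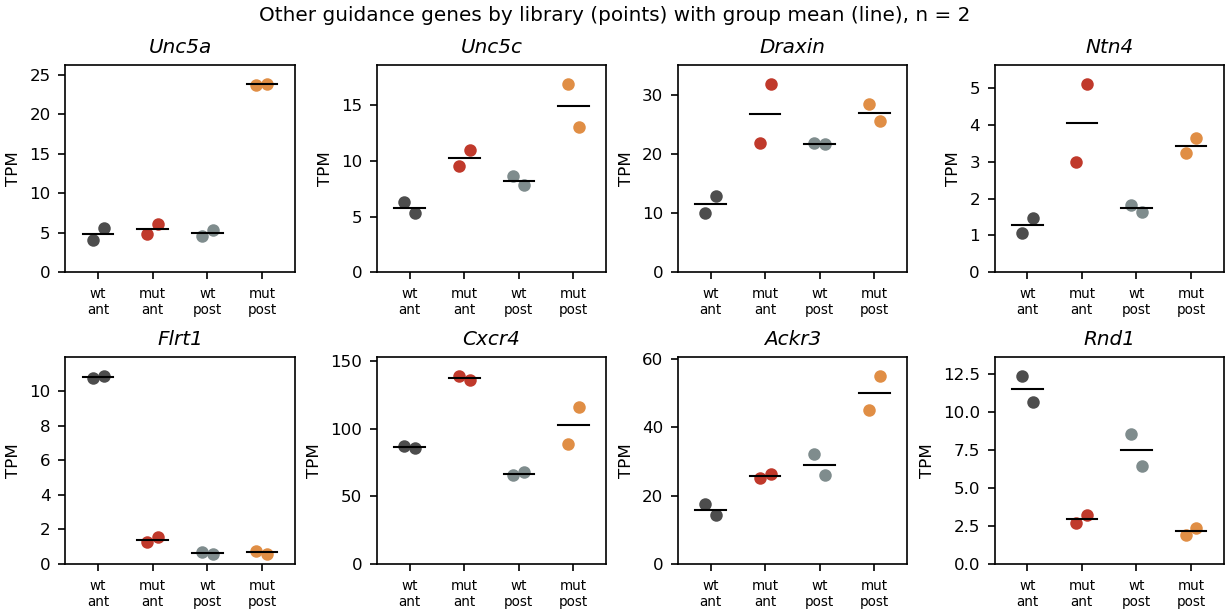
TPM by library (points) with the group mean (line), n = 2, for genes of the related lists. Unc5a is high in the posterior mutants alone (23.7 and 23.8 TPM), Flrt1 in the anterior wild type alone (10.8 and 10.9 TPM), and Rnd1 is lower in the mutants of both pieces.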

How the data were processed

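Poly-A RNA was sequenced from 8 libraries made with a non-stranded TruSeq kit, per the labels' protocols. The authors deposited 1 table of TPM values per gene, and the submitters' processing notes name CASAVA 1.8.2, STAR and mm10, and no source used here describes the counting and TPM steps. Multiplied by exon length, 98.8% to 98.89% of the values above 0 per library came within 0.01 of a whole read count, which gave the depths. Symbols, biotypes and exon lengths came from GENCODE M21 for GRCm38.

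Genes with at least 1 TPM in at least 2 libraries were tested on log2(TPM + 1) with limma 3.58.1 in R 4.3.3, after a check on simulated data. The fit held 4 group means over all 8 libraries, with a mean-variance trend, 4 residual and 4.68 prior degrees of freedom. Two-sided p-values were adjusted by Benjamini and Hochberg's method within each comparison over the 16699 genes, with a threshold of 0.05. Adjusted p-values are limma's throughout, and ± marks the SE.

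Members and gene lists were chosen with earlier results of these data known. Named were all members passing in a genotype effect or in the difference between pieces, the highest member of each family, the 5 members with the largest regional difference each way, up to 4 genes per related list by smallest p, and members below the filter. Alternatives covered the pseudocount (0.1 and 0.5), the filter, the scaling, library weights, fits within 4 libraries, a replicate block and left-out libraries. Columns of 0 other samples were in the table. Hjv and Grb4 had no match.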

Additional observations from a re-analysis of the deposited data

Results flagged for a closer look

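The genotype effects of the 2 pieces differed by the test of the difference itself for 3 of the genes named in the report. For Efnb3 the anterior effect minus the posterior effect was -1.15 on the log2(TPM + 1) scale (adjusted p = 0.026). For Unc5a it was -1.91 (adjusted p = 0.011) and for Flrt1 -2.34 (adjusted p = 0.0047). Efnb3 and Unc5a were higher in the posterior mutants, and Flrt1 was lower in the anterior mutants. The Flrt1 call held without any 1 library and was lost without both libraries numbered 159 (0.056), whose sex differed, or both numbered 153 (0.25).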

How the results depend on the processing

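Of 5096 values of named genes under an alternative, 4546 stayed on their side of the threshold, 497 lost a call and 53 gained one. The sign turned in 89 of them, 0 of which belonged to a call, as for anterior Efnb3 without anterior mutant 163 (-0.07). Members called in the posterior piece numbered 15, against 5 with no filter on low values, 6 with only the 4 libraries compared, 7 with library weights, 6 without both libraries numbered 159 and 0 without both numbered 153. In the anterior piece 3 remained of 19 without both numbered 153, and between the wild-type pieces 4 of 23. For the difference between the genotype effects, 0 members passed with no filter, after median-of-ratios scaling, after quantile normalization, without both numbered 159 and without both numbered 153, and 2 passed with a filter of 5 TPM. Without any 1 library the counts ran from 9 to 24 (anterior), 3 to 12 (posterior), 0 to 1 (difference), 16 to 25 (region, wild type) and 22 to 30 (region, mutant). The cause was not tested.

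Over all genes, anterior calls numbered 3937 and 1510 to 4487 without any 1 library, posterior calls 1919 and 385 to 1768, and calls of the difference 169 and 20 to 179. The posterior calls split 1430 higher and 489 lower, against 1367 and 1150 after median-of-ratios scaling and 1226 and 1050 after quantile normalization. With numbers as a replicate block, 23 members passed between the wild-type pieces (21 shared), 35 between the mutant pieces (31 shared) and 1, Efnb3, for the difference (adjusted p = 0.041). Same-numbered pieces deviated together at a correlation of 0.14 (159 and 163) and 0.02 (153 and 156). With 2 libraries a group the deviations mirror each other, so each genotype gives 1 value. The mutant numbers also tracked sex, with Xist in both 159 pieces (25.3 and 30.9 TPM) and Ddx3y in both 163 pieces (31 and 39.4 TPM). Whether the numbers pair samples is not given. No block was possible for the genotype effects, which share no number. Genes that did not reach 1 TPM in at least 2 libraries were left out of the main fit, so changes in them were not assessed there.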
